A study of Homo sapiens with 2 samples.

Results

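The genes described here are the human histone lysine methyltransferases and demethylases of the KMT, SETD, EHMT, SUV39H, NSD and KDM series, chosen by gene name alone. The rule took 44 of the 20263 genes in the deposited table, 24 methyltransferase (writer) genes and 20 demethylase (eraser) genes. They were measured by RNA-seq in H9 cells, an established line of human embryonic stem cells, 48 h after treatment with a small interfering RNA against HNRNPA1 (siHNRNPA1) or with a control small interfering RNA (sicontrol). HNRNPA1 encodes hnRNP A1, an RNA-binding protein that regulates splicing. Each condition had 1 library, so no difference below has a replicate check, no test was applied, and intervals on levels cover counting error only (exact Poisson, 95%). The cells came from 1 line, and both libraries carried a small interfering RNA.

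Histone lysine methyltransferases transfer methyl groups from S-adenosylmethionine to lysines of histone tails, mostly through a SET domain. Demethylases remove them, either as flavin-dependent amine oxidases (KDM1A and KDM1B) or as iron- and 2-oxoglutarate-dependent enzymes with a JmjC domain. The residue matters: methylation of H3K4 marks promoters and enhancers, and H3K36 methylation marks transcribed gene bodies. Methylation of H3K9 and trimethylation of H4K20 mark heterochromatin. H3K27 methylation is the mark of Polycomb repression. In embryonic stem cells many developmental genes carry H3K4 and H3K27 methylation together, a state called poised.

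The sequences below show what the transcripts of these genes must retain to encode an active enzyme, since several genes differed between the libraries in the share of such transcripts. Each is coding sequence from GENCODE release 29 (GRCh38), read 5′ to 3′ on the strand of the gene. For the writers, capitals mark the codons of the asparagine-histidine motif of the SET domain, which lies in the pocket that binds S-adenosylmethionine. The pairs KMT2C and KMT2D, and EHMT1 and EHMT2, are close relatives whose values differed, while KMT2A, NSD2 and KMT5A are genes whose share of motif-encoding transcripts differed. The capitals lie at chr11:118521978-118521998 in KMT2A, chr7:152138877-152138897 in KMT2C, chr12:49022124-49022144 in KMT2D, chr4:1974911-1974931 in NSD2, chr9:137834406-137834426 in EHMT1, chr6:31880771-31880791 in EHMT2 and chr12:123407536-123407556 in KMT5A.
KMT2A: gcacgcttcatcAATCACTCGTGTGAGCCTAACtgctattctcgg
KMT2C: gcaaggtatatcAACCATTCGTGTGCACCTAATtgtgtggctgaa
KMT2D: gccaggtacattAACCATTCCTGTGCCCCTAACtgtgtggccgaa
NSD2: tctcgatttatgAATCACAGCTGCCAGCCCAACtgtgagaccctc
EHMT1: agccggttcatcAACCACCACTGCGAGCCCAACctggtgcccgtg
EHMT2: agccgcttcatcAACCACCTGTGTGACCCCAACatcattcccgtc
KMT5A: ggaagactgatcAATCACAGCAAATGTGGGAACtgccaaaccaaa
Over the 45 bases shown, KMT2C and KMT2D were identical at 38 positions, and EHMT1 and EHMT2 at 35.

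For the erasers, capitals mark the codons of the JmjC stretch that holds iron-binding residues. KDM2A, KDM3A and KDM4C are shown because their share of motif-encoding transcripts differed, and KDM4A as the close relative of KDM4C. The capitals lie at chr11:67215893-67215913 in KDM2A, chr2:86489362-86489379 in KDM3A, chr1:43663026-43663058 in KDM4A and chr9:6849639-6849671 in KDM4C.
KDM2A: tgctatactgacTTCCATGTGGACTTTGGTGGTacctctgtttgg
KDM3A: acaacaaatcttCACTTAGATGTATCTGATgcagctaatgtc
KDM4A: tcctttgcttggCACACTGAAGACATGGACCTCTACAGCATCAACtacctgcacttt
KDM4C: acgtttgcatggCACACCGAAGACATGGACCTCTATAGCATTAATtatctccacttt
KDM4A and KDM4C were identical at 48 of the 57 bases shown.

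The target of the small interfering RNA was checked first. HNRNPA1 (ENSG00000135486) had 179.9 FPKM (fragments per kilobase of transcript, scaled to library depth) in the siHNRNPA1 library and 663 FPKM in the sicontrol library, 27.1% of the control. Depth was close, at 28147828 (siHNRNPA1) and 26680342 (sicontrol) estimated counts. The 10 pluripotent cell markers summed to 2180 FPKM in the siHNRNPA1 library and 2200 FPKM in the sicontrol library, and POU5F1 was the highest of them. All 10 were kept (a mean of at least 1 FPKM), 4 of them at least 2-fold lower and 1 higher, so the near-equal sums hide differences of single markers. Across all genes kept, 21.9% were lower and 12.4% higher by that much, and the marker lists are short. Of the 8 neural ectoderm markers 4 were kept and 2 of these were higher, with a sum over the list of 215 against 81.6 FPKM and NEUROG2 at 0. NES was the highest of that list. The mesoderm list summed to 10.9 against 35.6 FPKM, the endoderm list to 6.72 against 2.98 FPKM with GATA6 and SOX17 at 0, and the trophoblast list to 4.30 against 1.76 FPKM with CGA, ELF5 and TFAP2A at 0. The fibroblast list summed to 218 against 264 FPKM, with COL3A1, DCN and LUM at 0. Its highest gene was THY1, which human embryonic stem cells also express. Whether such other cells were present, and their part in the results below, was not tested. In bulk RNA fewer cells of a type and less RNA per cell cannot be told apart.

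Lower levels outnumbered higher ones among the writer and eraser genes after siHNRNPA1 treatment. Of the 40 members with a mean of at least 1 FPKM, 15 (37.5%) had a level lower by 2-fold or more and 1 (2.50%) had a level higher by that much. Across all 11921 genes kept, the lower share was 21.9% and the higher share 12.4%. The median log2 fold of the members was -0.63, against -0.13 over all genes kept. Folds here are log2((siHNRNPA1 + 1)/(sicontrol + 1)) of FPKM, which understates the difference of a weakly expressed gene. In summed FPKM, the members reached 559 in the siHNRNPA1 library and 775 in the sicontrol library, 72.1% of the control.

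The scale on which the libraries are set against each other moved the count but not its direction. The median of all genes kept was -0.13 as deposited, -0.28 with FPKM rescaled to an equal sum per library, and 0.00053 after division by the median ratio of the libraries. The members counted lower numbered 15, 16 and 12 on these scales in turn, and those counted higher 1, 1 and 2. Over all genes kept, the lower share was 21.9%, 28.0% and 18.4% in turn, and the higher share 12.4%, 10.5% and 16.0%. Among all genes past 2-fold, the share that was higher was 36.2% as deposited, 27.4% rescaled and 46.5% by median ratio.

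**Figure D1:**
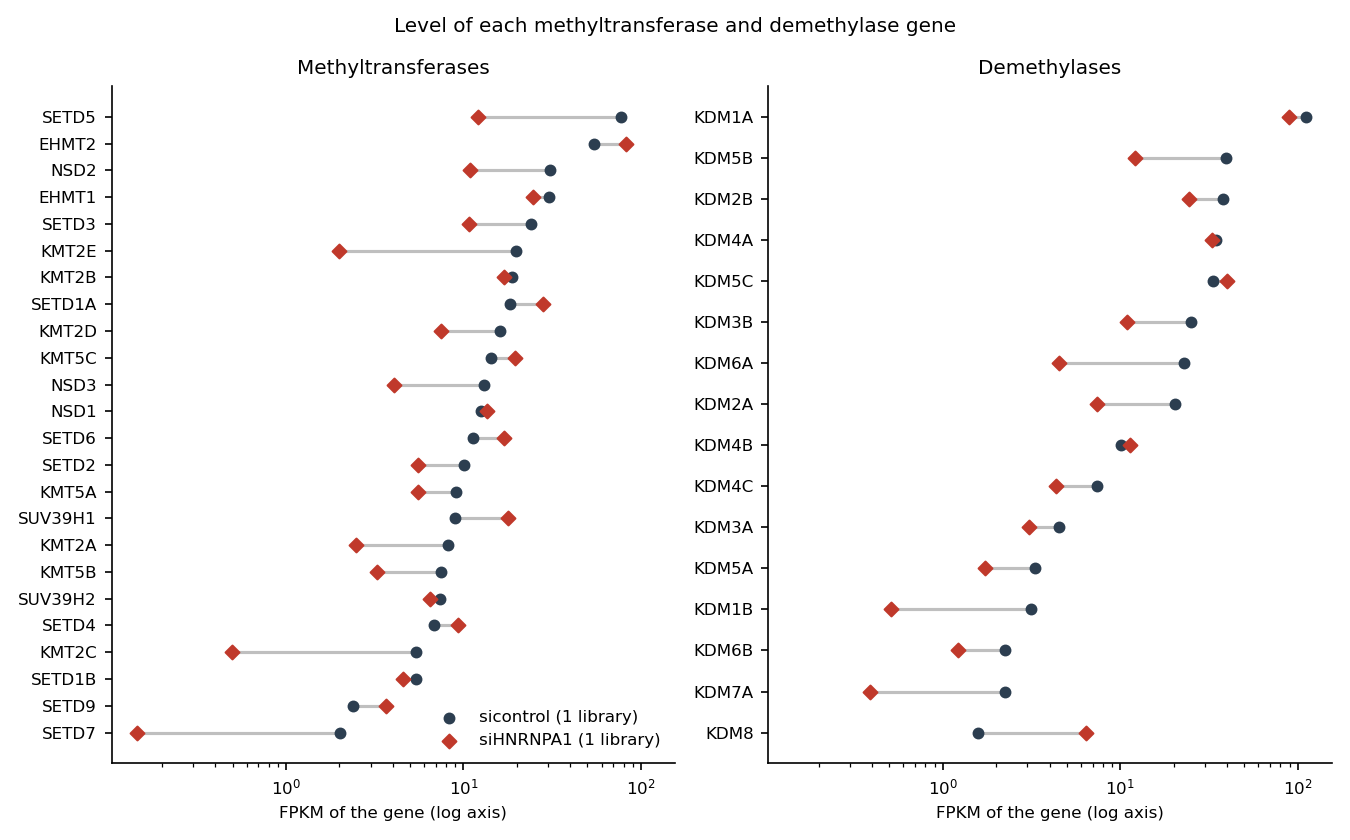
Level of each of the 40 kept genes in FPKM on a log axis, in the sicontrol library (circles) and the siHNRNPA1 library (diamonds), 1 library each and no error bars; a grey line joins the pair of values of a gene. SETD7, KMT2C, KMT2E and SETD5 show the widest gaps to the left, and KDM8 the widest to the right.

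In all, 4 members did not reach the minimum level. KDM4D was just outside it, at 1.21 FPKM in the siHNRNPA1 library and 0.592 FPKM in the sicontrol library, a mean of 0.899. KDM4E, KDM4F and KDM5D were listed at 0 in both libraries. SETD7 was just inside, with a mean of 1.08 FPKM.

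The same share of the writers and of the erasers kept, 37.5%, was lower by 2-fold or more. Of the 24 writers, 9 passed 2-fold downward and 0 upward, with a median log2 fold of -0.47, and of the 16 erasers kept, 6 were lower and 1 higher, with a median of -0.64. The writers' median lay 0.17 above that of the erasers as deposited. Once each gene was set against the 100 genes most like it in level, GC content and transcript length, the difference was -0.04. Summed over genes, the writers were at 308 against 414 FPKM (74.3% of the control) and the erasers at 251 against 361 FPKM (69.6%). Leaving out the members with no or a disputed histone lysine activity (KMT2E, SETD3, SETD4, SETD5, SETD6, SETD9 and KDM8) left 6 of 18 writers (33.3%) and 6 of 15 erasers (40.0%) lower. The lower share over all genes kept was 21.9%.

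**Figure D2:**
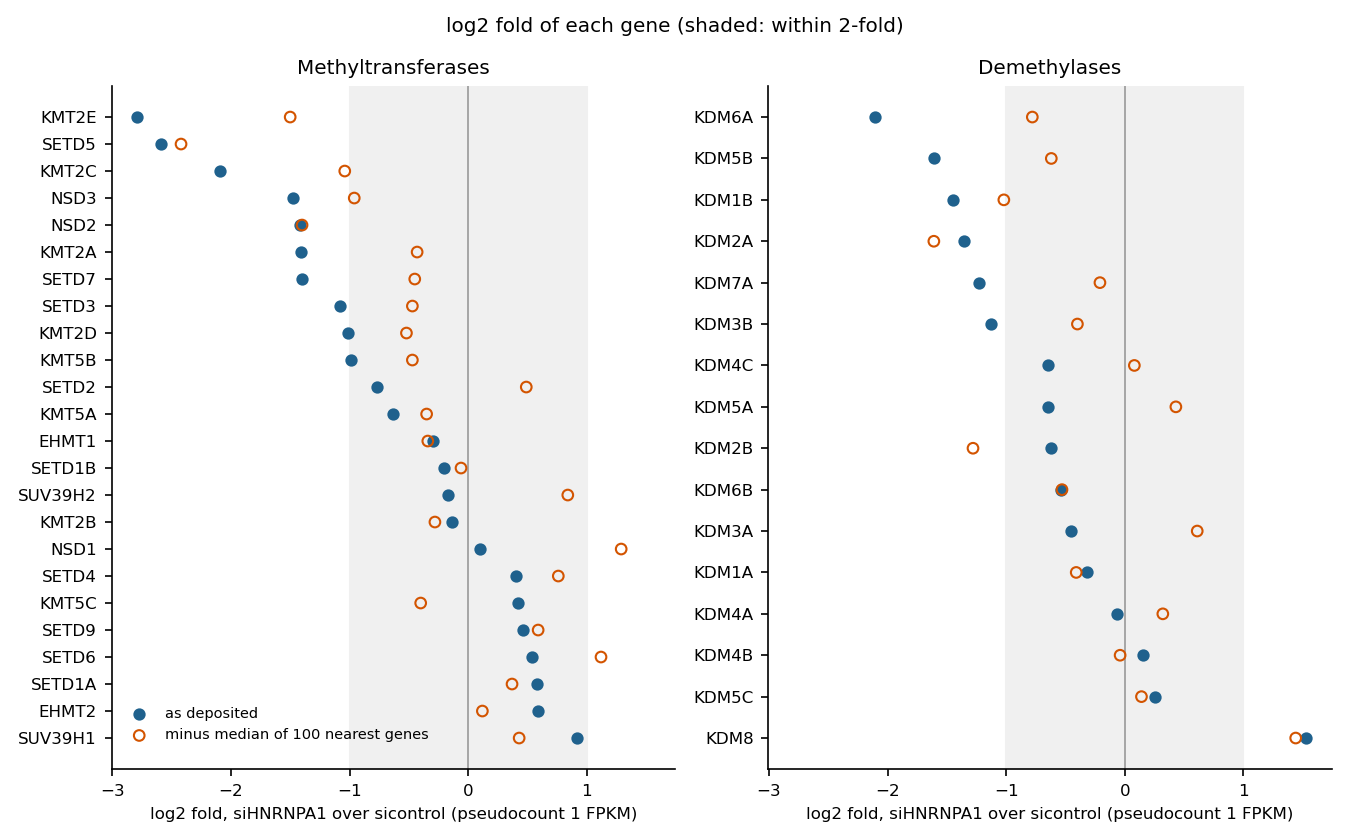
Log2 fold of siHNRNPA1 over sicontrol for each of the 40 kept genes (1 FPKM added to both values), as deposited (filled circles) and after subtraction of the median fold of the 100 nearest genes (open circles), with folds within 2-fold shaded. Most filled circles left of the shaded band have their open circle inside it, while KMT2E, SETD5, NSD2, KDM2A, KMT2C and KDM1B have both outside.

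Of the 7 H3K4 writers, 4 (57.1%) passed 2-fold downward and 0 upward, beside 21.9% and 12.4% of all genes kept. Their median log2 fold was -1.01. The residue groups are small, so 1 gene moves such a share by much. By median ratio 3 passed downward, beside 18.4% of all genes kept. Against their nearest genes 1 did, beside 8.35% of all genes, with a median of -0.43. KMT2C (chr7:152134922-152436005, minus strand), a catalytic subunit of the COMPASS-like complexes that place H3K4 monomethylation at enhancers, had 0.499 FPKM (0.429 to 0.578) in the siHNRNPA1 library and 5.41 FPKM (5.12 to 5.70) in the sicontrol library, 9.24% of the control. The gene has near-identical copied segments elsewhere in the genome, so its count is uncertain. Its close relative KMT2D had 7.44 FPKM (7.22 to 7.68) against 16.0 FPKM (15.6 to 16.3), a log2 fold of -1.01, just past the 2-fold limit, and -0.86 by median ratio. KMT2A (MLL1), which keeps homeotic genes active, had 2.47 FPKM (2.32 to 2.62) against 8.22 FPKM (7.97 to 8.48). SETD7, a monomethyltransferase that also acts on many non-histone proteins, had 0.145 FPKM (0.102 to 0.201) against 2.02 FPKM (1.84 to 2.23), from 36 and 422 estimated counts. The other genes of the group were within 2-fold. KMT2B, the closest relative of KMT2A, was at 17.0 against 18.7 FPKM, and SETD1B at 4.56 against 5.39 FPKM. SETD1A, which carries out most H3K4 trimethylation at promoters together with SETD1B, was at 28.1 against 18.4 FPKM, a log2 fold of 0.58.

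Among the H3K4 erasers, 2 of the 5 genes kept (40.0%) were lower, beside 21.9% of all genes kept. KDM5B (chr1:202724491-202809470, minus strand), a trimethyl-H3K4 demethylase, had 12.2 FPKM (11.8 to 12.5) in the siHNRNPA1 library and 39.3 FPKM (38.5 to 40.1) in the sicontrol library, a log2 fold of -1.61. KDM1B (LSD2), which acts on H3K4 in gene bodies and imprinted loci, had 0.510 FPKM (0.371 to 0.685) against 3.13 FPKM (2.75 to 3.53), from 44 and 257 estimated counts. The most abundant eraser, KDM1A (LSD1), differed little by comparison. Its level was 89.5 FPKM (87.6 to 91.4) against 112 FPKM (110 to 114), a log2 fold of -0.32. KDM5A was at 1.74 against 3.31 FPKM and KDM5C, the X-linked paralogue, at 40.1 against 33.4 FPKM. Reads of KDM5C and its homologue KDM5D can be hard to assign, but KDM5D was listed at 0.

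Among the members, the H3K9 writers were the residue group with a median above 0. The name rule left out other H3K9 methyltransferases, and SETDB1 (-0.42), SETDB2 (-1.07) and PRDM2 (-1.50) were below 0. None of the 4 genes was past 2-fold as deposited, and the median log2 fold was 0.21, with 0.06 rescaled and 0.36 by median ratio. SUV39H1, which trimethylates H3K9 in constitutive heterochromatin, had 17.8 FPKM (16.9 to 18.7) in the siHNRNPA1 library and 8.93 FPKM (8.32 to 9.57) in the sicontrol library. Its log2 fold was 0.92, and 1.07 by median ratio, where it passed 2-fold. EHMT2 (G9a) had 82.2 FPKM (80.7 to 83.8) against 54.4 FPKM (53.1 to 55.7), while its partner EHMT1 (GLP), with which it forms the H3K9 mono- and dimethylating complex, was at 24.5 against 30.4 FPKM. SUV39H2 was at 6.45 against 7.37 FPKM. Summed over the 4 genes, the H3K9 writers reached 131 FPKM in the siHNRNPA1 library and 101 FPKM in the sicontrol library.

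The H3K9 erasers lay below 0 in 5 of the 6 genes kept, with a median of -0.55. Of the 6, 2 (33.3%) were past 2-fold downward, beside 21.9% of all genes kept. KDM7A, which removes dimethyl marks of H3K9 and H3K27, had 0.387 FPKM against 2.24 FPKM. KDM3B, an H3K9 mono- and dimethyl demethylase, had 10.9 FPKM against 25.1 FPKM, a log2 fold of -1.13. KDM3B was within 2-fold (-0.98) by median ratio. The other members were within 2-fold: KDM3A was at 3.05 against 4.51 FPKM, KDM4C at 4.35 against 7.41 FPKM, KDM4A at 33.0 against 34.7 FPKM and KDM4B at 11.3 against 10.1 FPKM. On depth-scaled counts KDM4C was past 2-fold (-1.27), and 3 genes of the group were lower. After subtraction of the nearest genes the median of the group was 0.02.

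The H3K36 writers differed among themselves. NSD2 (chr4:1871424-1982207, plus strand), an H3K36 dimethyltransferase, had 10.9 FPKM (10.3 to 11.5) in the siHNRNPA1 library and 30.8 FPKM (29.9 to 31.8) in the sicontrol library, a log2 fold of -1.42. NSD3 had 4.06 FPKM (3.74 to 4.41) against 13.1 FPKM (12.6 to 13.7), a log2 fold of -1.48. SETD2, the main enzyme of H3K36 trimethylation, was within 2-fold at 5.53 against 10.1 FPKM. NSD1 stood apart from its paralogues at 13.5 against 12.5 FPKM. Among the H3K36 erasers, KDM2A and KDM2B were below 0, and only KDM8, whose activity is disputed, was above. Each member was placed under 1 residue, so KDM4A and KDM4C, which also act on H3K36, stand with the H3K9 erasers. KDM2A (chr11:67119269-67258087, plus strand), a dimethyl-H3K36 demethylase that binds CpG islands through a CXXC zinc finger, had 7.36 FPKM (6.96 to 7.77) against 20.5 FPKM (19.7 to 21.2), a log2 fold of -1.36. Its paralogue KDM2B, which recruits a variant Polycomb complex to CpG islands, was at 24.5 against 38.2 FPKM. KDM8 (chr16:27203495-27221768, plus strand) was the only member past 2-fold upward, at 6.45 FPKM (5.90 to 7.03) against 1.58 FPKM (1.29 to 1.90), from 514 and 109 estimated counts. KDM8, also called JMJD5, is better established as a hydroxylase than as a demethylase.

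The H3K27 erasers and the H4K20 writers are small groups. KDM6A (UTX; chrX:44873177-45112602, plus strand), an H3K27 demethylase and a subunit of the KMT2C and KMT2D complexes, had 4.51 FPKM (4.16 to 4.88) in the siHNRNPA1 library and 22.8 FPKM (21.9 to 23.6) in the sicontrol library, 19.8% of the control. KDM6B was at 1.22 against 2.24 FPKM, so the pair summed to 5.73 against 25 FPKM. Among the H4K20 writers none was past 2-fold as deposited. KMT5B, which makes di- and trimethyl H4K20, was just outside the limit at 3.24 against 7.45 FPKM, a log2 fold of -0.99, and past it on the rescaled FPKM and on depth-scaled counts. The monomethyltransferase KMT5A was at 5.55 against 9.13 FPKM, and KMT5C at 19.4 against 14.3 FPKM.

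The remaining members have a SET or JmjC domain but no, or a disputed, histone lysine activity. KMT2E (MLL5; chr7:105014179-105114361, plus strand), which lacks known methyltransferase activity, had 1.99 FPKM (1.79 to 2.20) in the siHNRNPA1 library and 19.7 FPKM (18.9 to 20.6) in the sicontrol library. Its log2 fold of -2.79 was the lowest of the members with 1 FPKM added, while on depth-scaled counts SETD7 (-2.88) and KMT2C (-2.83) lay below KMT2E (-2.43). SETD5 (chr3:9397615-9479240, plus strand), a chromatin regulator linked to intellectual disability, had 12 FPKM (11.4 to 12.6) against 77.3 FPKM (75.7 to 78.9), a log2 fold of -2.59. Most of that SETD5 difference lay in a transcript annotated for nonsense-mediated decay: over its protein-coding transcripts alone the gene was at 10.5 against 16.6 FPKM, a log2 fold of -0.62. SETD3, an actin histidine methyltransferase, was at 10.8 against 24.1 FPKM (log2 fold -1.08), and within 2-fold by median ratio (-0.94). SETD4, SETD6 and SETD9 were above 0, at 9.32 against 6.80, 16.9 against 11.3 and 3.66 against 2.38 FPKM. Because of these, the median of the group was 0.40, while 3 of its 7 genes (42.9%) were past 2-fold downward, beside 21.9% of all genes kept.

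Folds went with base composition and transcript length in these libraries, and the members followed. Across the 11916 genes with a reference transcript, Spearman's correlation of fold with the GC content of the leading transcript was 0.58 and with its length -0.46. Across the 40 members the same correlations were 0.47 and -0.29. All points share the same pair of libraries, and the values are a description. The lower members had longer and less GC-rich leading transcripts, with a median of 5874 nt and 46.5% GC, than the 11 members above 0, with 3423 nt and 58.4%. With all genes cut into 5 equal bins of GC content, 2 of 4, 7 of 14, 4 of 8, 2 of 7 and 0 of 7 members were lower, from the most AT-rich to the most GC-rich, against 48.7%, 33.9%, 17.8%, 6.92% and 2.01% of all genes.

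**Figure D3:**
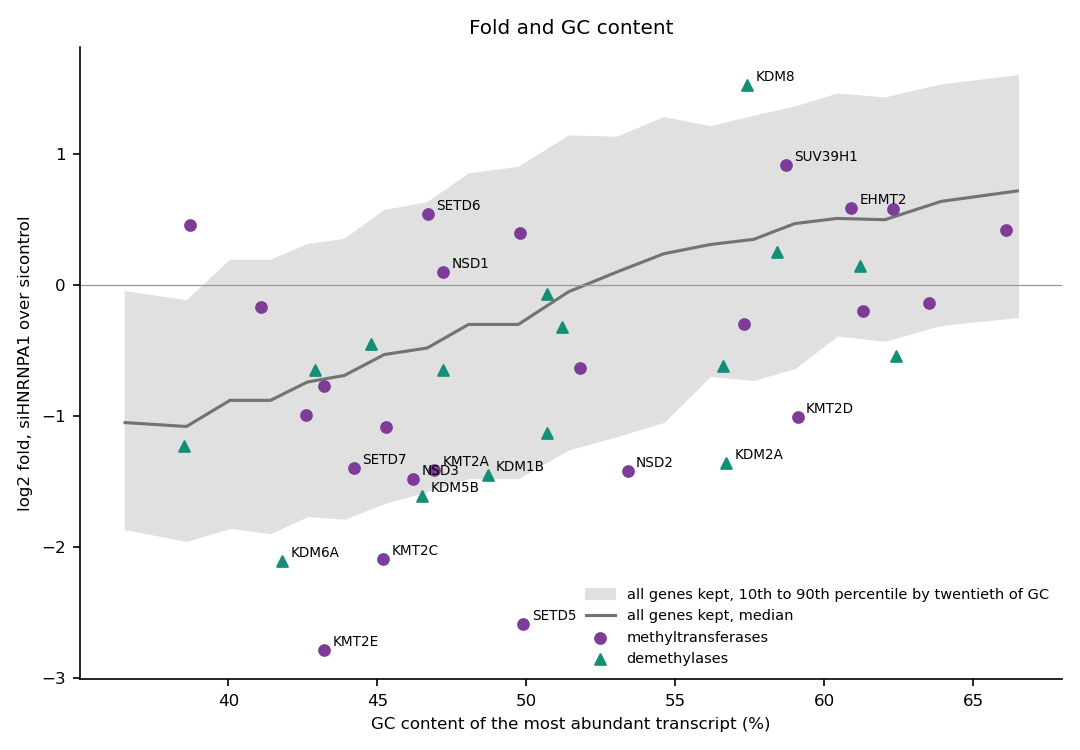
Log2 fold of each kept gene against the GC content of its most abundant transcript (circles, methyltransferases; triangles, demethylases), over the median (line) and the 10th to 90th percentile (shaded) of all genes kept in twentieths of GC content. KMT2E, KMT2C, SETD5, NSD2, KMT2D, KDM2A and KDM6A are among the genes below the shaded band, and KDM8 is among those above it.

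Subtracting the median fold of the 100 nearest genes left 7 of the 40 members lower by 2-fold or more and 3 higher, beside 8.35% and 8.11% of all genes. Of the 15 genes lower as deposited, 6 were still lower, and the members' median was -0.35. The 6 were SETD5 (-2.42), KDM2A (-1.61), KMT2E (-1.50), NSD2 (-1.40), KMT2C (-1.04) and KDM1B (-1.02). KDM2B was lower only on this scale, at -1.28, where its leading transcript is a short form of 1549 nt. With neighbours taken by the weighted length and GC content of all transcripts, KDM2B (-0.69), KMT2C (-0.93) and KDM1B (-0.87) came within 2-fold. The genes higher after subtraction were KDM8 (1.44), NSD1 (1.29) and SETD6 (1.12), of which SETD6 was within 2-fold (0.54) with the weighted neighbours. KDM6A (-0.78), KDM5B (-0.62), KMT2D (-0.52), SETD7 (-0.45) and KMT2A (-0.43) came within 2-fold of their neighbours. KDM2A, KMT2E and NSD2 were at least 2-fold lower under every alternative tried, and SETD5 under all but the one limited to protein-coding transcripts.

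The transcripts that carried the FPKM also differed between the libraries. The comparison took the 22 members that reached 5 FPKM in each library and had 2 transcripts or more. Of these, 13 had a transcript whose share of the gene's FPKM differed by at least 20 percentage points, and 40.6% of all such genes did. The 13 were 8 writers and 5 erasers, and 9 of them had another leading transcript. How reads are divided between overlapping transcripts is an estimate, and a transcript listed at 0 can be a failed one.

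KDM5B had the largest difference. KDM5B-202, which encodes 1580 residues, was listed at 0 FPKM in the siHNRNPA1 library and at 33.7 FPKM in the sicontrol library, while KDM5B-203, which encodes 1544 residues, had 12.2 against 5.6 FPKM. As the reads were divided, the lower FPKM of KDM5B lay in KDM5B-202, whose own exon holds repeated sequence, as described with the skipped exons. On depth-scaled counts the log2 fold of the whole gene was -1.1, against -1.61 in FPKM. NSD1 had nearly equal gene levels but another leading form: NSD1-202, of 2427 residues, was listed at 0 against 9.62 FPKM, and NSD1-204, of 2696 residues, at 12.2 against 1.07 FPKM. For NSD2, the full-length NSD2-219 of 1365 residues had 1.38 against 26.9 FPKM. A shorter form of 713 residues that still encodes the SET motif, NSD2-203, had 6.20 against 1.19 FPKM.

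SETD5 and KMT5A each had a decay-annotated transcript that was listed at 0 in the siHNRNPA1 library. SETD5-206 was at 0 against 52.3 FPKM, while the coding SETD5-201 had 7.79 against 1.98 FPKM. KMT5A-204 was at 0 against 4.51 FPKM, and the coding KMT5A-202 had 5.55 against 3.84 FPKM. Counting all transcripts annotated for nonsense-mediated decay, their share was 12.9% against 78.5% in SETD5 and 0% against 49.4% in KMT5A. These were 2 of the 14 members with such a transcript and at least 5 FPKM, and 0 were 20 points higher, beside 7.06% of all such genes lower and 6.36% higher. KMT5C came near the limit on the other side, at 31.3% against 11.9%.

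Most of the other members past 20 points exchanged one coding form for another. EHMT1 was different: its full-length EHMT1-203 had a share of 26.2% against 65.7%, and the decay-annotated EHMT1-248 had 4.14 against 1.11 FPKM. All decay-annotated transcripts together made up 30.1% of EHMT1 against 14.2%. KDM4B-211 had 9.29 against 1.92 FPKM and KDM4B-201 1.19 against 6.82 FPKM, at nearly equal gene levels. SUV39H2-201 had 4.0 against 1.18 FPKM, and the shorter SUV39H2-204 had 0.189 against 2.54 FPKM. KDM2A-212, a short form without the JmjC motif, had 3.05 against 14.0 FPKM, and the long KDM2A-210 had 2.87 against 0.559 FPKM. Thus most of the lower level of KDM2A lay in the short form. KDM2B-219 had 10.2 against 4.11 FPKM and KDM2B-203 5.28 against 14.6 FPKM. EHMT2-201 had 0.306 against 14.2 FPKM, while EHMT2-202 and EHMT2-204 had 38.2 against 16.3 and 42.1 against 15.5 FPKM. SETD4-209 had 0.759 against 2.44 FPKM, and KDM3B-209, listed at 0 in sicontrol, had 2.61 FPKM in the siHNRNPA1 library.

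The catalytic motifs printed above were searched in the translated transcripts of the members. The SET motif was found in 18 of the 24 writers and in none of KMT2E, SETD3, SETD4, SETD5, SETD6 and SETD9. A JmjC motif was found in the 14 kept erasers other than KDM1A and KDM1B, which are amine oxidases and were not searched. The share of a gene's FPKM in motif-encoding transcripts was within 20 points between the libraries for 23 of these 32 genes, 20 points or more lower in the siHNRNPA1 library for 6 and higher for 3. No minimum of 5 FPKM per library was set here, and NSD3, KMT2A, KMT2C, KDM4C and KDM3A, all among these 9, were under 5 FPKM in the siHNRNPA1 library. A short or fragmentary transcript counts by whether its coding sequence covers the motif. KMT2D-202, of 218 residues, counts as motif-encoding, and fragments without the motif count as lacking it. The shares therefore do not measure full-length transcripts.

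Of the 6 genes with a lower share, 5 were writers. NSD3 had 10.1% of its FPKM in motif-encoding transcripts in the siHNRNPA1 library and 52.7% in the sicontrol library. The short form NSD3-201, which ends before the SET domain, was at 3.42 against 4.0 FPKM. The full-length NSD3-202 was at 0.175 against 5.37 FPKM, the largest difference of any NSD3 transcript. All motif-encoding NSD3 transcripts together were at 0.411 against 6.93 FPKM, and the other forms were lower as well, among them NSD3-208 at 0.205 against 1.49 FPKM. EHMT1 had 26.2% against 65.7%. The log2 fold of its motif-encoding FPKM was -1.50, where the whole gene was at -0.30. KMT2A had 69.8% against 96.2%, NSD2 69.8% against 91.0%, and KMT2C 58.6% against 83.1%. KDM4C was the eraser among the 6, at 53.9% against 91.5%, with 2.35 against 6.78 FPKM in motif-encoding transcripts.

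In the 3 genes with a higher share the motif-encoding level was within 2-fold. KMT5A had 100% against 50.6%, and 5.55 against 4.62 FPKM. KDM3A had 93.3% against 60.1%, and 2.84 against 2.71 FPKM. For KDM2A the values were 58.5% against 31.8%, and 4.30 against 6.51 FPKM, a log2 fold of -0.50 where the whole gene was at -1.36. Over the 32 genes, 12 were at least 2-fold lower in motif-encoding FPKM and 11 in total FPKM. In total FPKM 21.9% of all genes kept were. The median log2 fold in motif-encoding FPKM was -0.38 for the writers and -0.57 for the erasers.

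**Figure D4:**
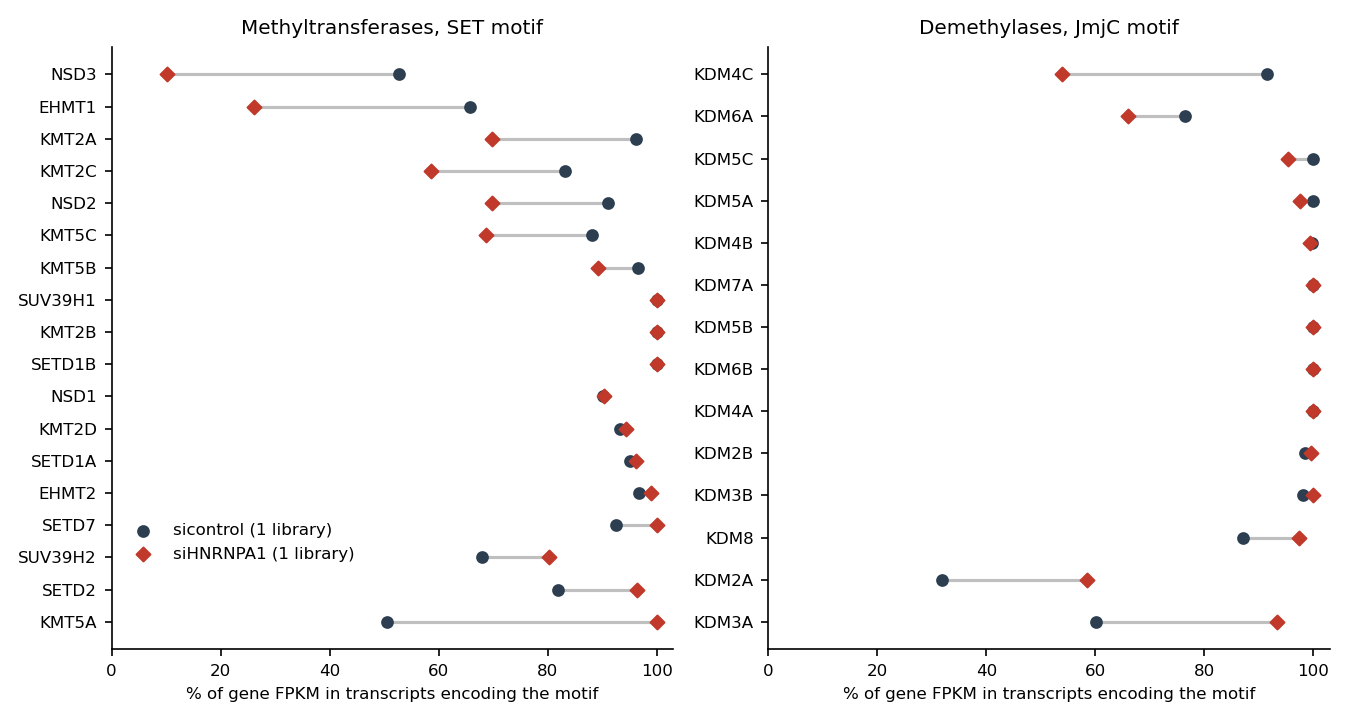
Share of each gene's FPKM in transcripts that encode the SET motif (methyltransferases) or the JmjC motif (demethylases), in percent, in the sicontrol library (circles) and the siHNRNPA1 library (diamonds). NSD3, EHMT1 and KDM4C are far lower in the siHNRNPA1 library, and KMT5A, KDM3A and KDM2A higher.

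Skipped exons are exons that some annotated transcripts of a gene include and others leave out between the same neighbours. The members held 37 such events in 17 genes. Inclusion, the including share of the FPKM of both kinds of transcript, was at least 20 points higher in the siHNRNPA1 library for 3 events and lower for 2, beside 6.94% and 6.56% of the 7909 events of all genes. The transcripts compared differ in other places too, so an inclusion value follows whole transcripts and not exon junctions.

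The coding exons of KDM4B and SETD5 with the largest differences have a length that is a multiple of 3, and their sequences are shown with the exon in capitals and the neighbouring exons in lower case. They lie at chr19:5119118-5119219 (plus strand, 102 nt) in KDM4B and chr3:9436850-9436888 (plus strand, 39 nt) in SETD5.
KDM4B: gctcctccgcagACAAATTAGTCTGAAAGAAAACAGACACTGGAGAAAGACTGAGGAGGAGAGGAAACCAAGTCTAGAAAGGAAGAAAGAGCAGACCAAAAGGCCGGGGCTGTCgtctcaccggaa
SETD5: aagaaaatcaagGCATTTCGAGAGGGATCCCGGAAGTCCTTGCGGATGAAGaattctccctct
The KDM4B exon had an inclusion of 89.4% after siHNRNPA1 and 31.9% after sicontrol. The SETD5 exon was included at 76.1% against 10.5%. Inclusion of a 108 nt exon of KDM5B was 0% against 85.7%, which is the exchange of KDM5B-202 for KDM5B-203.

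The KDM4B and SETD5 exons shown share no run of 25 bases with the transcripts of any other gene. Runs of that length from the 108 nt KDM5B exon occur in transcripts of 942 other genes, on either strand, so reads within it are hard to assign and its inclusion and the level of KDM5B-202 are uncertain. The letters TAGGG, taken here from the known binding preference of hnRNP A1, were searched in exons on the transcript strand. They occur in neither the KDM4B nor the SETD5 exon shown. Only 1.66% of exons of 102 nt and 0.213% of exons of 39 nt hold them, so their absence was likely beforehand. Introns were not searched, and binding was not tested. Of 5668 internal exons with the lengths of the 5 events, 100 (1.76%) hold the letters. The 193 nt exon of SETD5 described next is among these, and 3.51% of exons of that length hold the letters. The other events past 20 points were a 122 nt exon of KMT5A, at 100% against 48.5%, and a noncoding 193 nt exon of SETD5, at 10.8% against 47.3%.

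**Figure D5:**
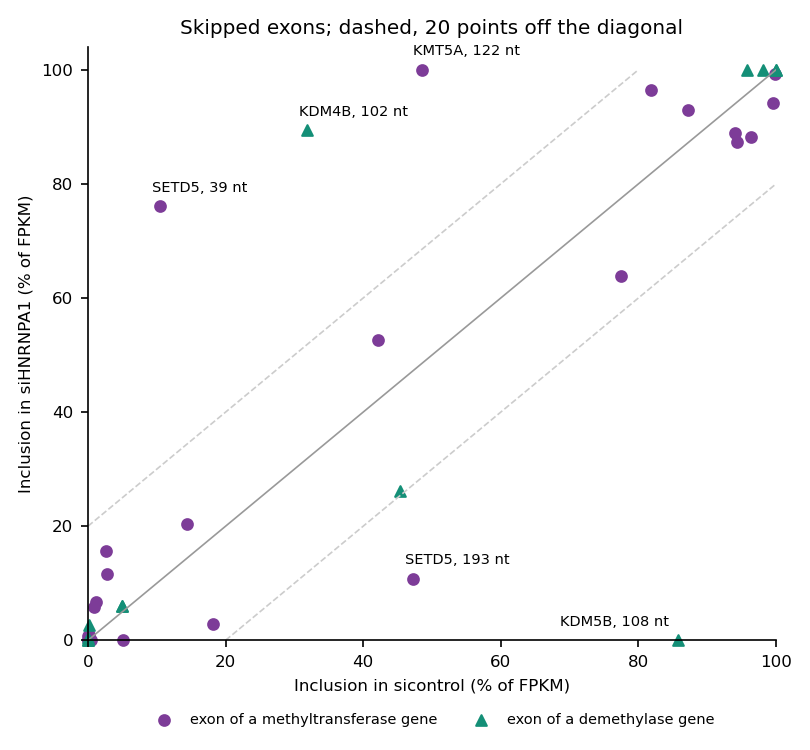
Inclusion of each skipped exon in the siHNRNPA1 library against the sicontrol library, in percent of the FPKM of including and skipping transcripts (circles, exons of methyltransferase genes; triangles, exons of demethylase genes), with dashed lines 20 points off the diagonal. The labelled exons of SETD5 (39 nt), KDM4B and KMT5A lie above, and those of KDM5B and SETD5 (193 nt) below.

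Related enzymes outside the rule were also described. Of 13 other SET-domain and DOT1L writers kept, 3 (23.1%) passed 2-fold downward and 2 (15.4%) upward, with a median log2 fold of -0.35. These shares are near those of all genes kept, 21.9% and 12.4%. Against the nearest genes 0 of the 13 writers were lower and 3 higher, beside 8.35% and 8.11% of all genes, and their median was 0.02. ASH1L, an H3K36 methyltransferase, was at 0.597 against 5.32 FPKM (log2 fold -1.98), and PRDM2 at -1.50. PRDM14, a pluripotency regulator that also stands in the pluripotent marker list, was at 46.5 against 14.3 FPKM (1.64), and SMYD5 at 1.49. The Polycomb enzyme EZH2, named here for its role after its values were seen, was at 21.0 against 18.9 FPKM (0.15). Against its nearest genes EZH2 was at 1.26, among the 3 counted higher there. Among 6 other JmjC genes kept, 2 (33.3%) were lower and 0 higher. JMJD1C, a relative of KDM3A, was at 2.85 against 26.7 FPKM (-2.85) and PHF2 at -1.23, while RIOX1 (0.95) and JMJD6 (0.64) were within 2-fold.

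The partner subunits of these enzymes were described as lists. For comparison, 21.9% of all genes kept were lower and 12.4% higher. Against the nearest genes these shares were 8.35% and 8.11%. Of 14 COMPASS subunits kept, which hold and direct the H3K4 writers, 4 (28.6%) were lower and 1 (7.14%) higher. Their median was -0.01 (0.14 by median ratio), and the largest folds were those of BOD1L1 (-1.94), NCOA6 (-1.93), PAGR1 (1.42) and PSIP1 (-1.37). Against their nearest genes 1 was lower and 0 higher. Of 11 Polycomb complex PRC2 subunits, 5 (45.5%) were lower and 0 higher, with a median of -0.80, led by SUZ12 (-1.62), AEBP2 (-1.49), JARID2 (-1.21) and MTF2 (-1.18). Against their nearest genes none of the 11 was past 2-fold. Of 10 partners of H3K9 methylation and HP1 proteins, 4 were lower and 1 higher, with a median of -0.67: CDYL (-2.23), ZNF644 (-1.80), ATF7IP (-1.56) and MPHOSPH8 (-1.09) were lower and TRIM28 was the 1 higher. Here 1 was lower and 0 higher against the nearest genes, with a median of -0.25.

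The list of LSD1 complex partners had the lowest median of these lists. It holds scaffold proteins and deacetylases of the KDM1A complexes, and GLYR1, a partner of KDM1B. Of 12 genes, 6 were lower and 1 higher, with a median of -0.98, and 4 were still lower against their nearest genes. ZMYM2 was at 5.28 against 27.2 FPKM (-2.17), the deacetylase HDAC2 at 18.9 against 82.9 FPKM (-2.08), and PHF21A at -1.39. KDM1A itself was at -0.32. Of 11 genes listed for methyl donor and 2-oxoglutarate metabolism, 3 (27.3%) were lower, beside 21.9% of all genes kept, and 0 higher. Their median was -0.51. AHCYL1 (-1.43), a relative of AHCY, and the regulatory subunit MAT2B (-1.19) were among the lower. The enzymes MAT2A (0.46) and AHCY (0.07) were within 2-fold, and IDH3B was at 0.85. None of the 11 was past 2-fold against its nearest genes. The arginine methyltransferases had a median of 0.65, with 1 of 8 genes kept (12.5%) lower and 0 higher. PRMT3 was at -1.67 and PRMT9 at -0.93, while PRMT6 (0.79) and PRMT2 (0.76) were above 0 and within 2-fold.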

How the data were processed

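RNA-seq values of H9 cells were analysed for the 1 siHNRNPA1 and the 1 sicontrol library that the labels tie to columns of a deposited transcript table. Per the file headers, each transcript has a count, TPM and FPKM. The deposited counts are whole numbers and were treated as estimated counts, the deposited TPM values sum to 1000000 in each library, and the FPKM deposited by the authors sum to 520633 (siHNRNPA1) and 468831 (sicontrol). TPM was not used for results. A further 6 columns of per-sample values match neither library and were not used. The aligner is not given in the sources used here, nor is the quantification program. Mouse builds (GRCm38, mm10) stand in the submitters' processing notes, but the identifiers are human: all 293 member transcripts are in GENCODE release 29 (GRCh38), 282 of them at the same position, and coordinates are on that build. Whether counting used strand is not given. No kept member's exons overlap another gene of the table on the same strand, and 5 (KDM5A, KDM2B, SUV39H2, KMT2B and SETD6) overlap one on the other strand.

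FPKM were summed per gene, 1 was added for log2 folds, genes with a mean of at least 1 FPKM were kept, and a gene was counted from 2-fold on. With 1 library per condition no test was possible. Total estimated counts were 28147828 and 26680342, and intervals are exact Poisson at 95%, counting error only. Catalytic motifs were searched by residue pattern in GENCODE coding sequences, translated. The fold and nearest-gene steps were tested on simulated data, and the transcript, motif and exon steps were not. Python 3.11.15, pandas 2.3.3, NumPy 2.4.6, SciPy 1.17.1 and Biopython 1.88 were used.

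The members and lists were chosen with earlier results of these data known. The rule for naming genes took HNRNPA1, every member, and the 4 genes with the largest absolute fold of each list outside the rule, of which a few are left out of the text. TRIM28, EZH2, SETDB1, SETDB2, MAT2A, AHCY and GLYR1 were named after seeing the data. The printed exons, the motif patterns and the neighbours by weighted GC content and length were also chosen after seeing the data. Alternatives covered the added constant, the minimum level, the scaling, depth-scaled counts in place of FPKM, protein-coding transcripts and the nearest genes.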

Additional observations from a re-analysis of the deposited data

How the results depend on the processing

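No paired analysis was possible because each condition has 1 library, and no replicate could be left out. The medians of writers and erasers were below 0 and the erasers' count of higher genes was 0 or 1 under every alternative run. With 5 FPKM added in place of 1, 4 writers and 3 erasers were lower and 0 erasers higher, the medians were -0.34 and -0.36 and their difference 0.02. With 0.1 FPKM added, the erasers' median was -0.79. A minimum of 5 FPKM left 0 erasers higher. Rescaled to an equal sum, the medians were -0.63 for writers and -0.82 for erasers. By median ratio they were -0.32 and -0.49, with 1 writer higher. On depth-scaled counts the erasers' median was -0.87 and the difference 0.34. After subtraction of the nearest genes, 4 writers were lower and 2 higher, 3 erasers were lower, the medians were -0.35 and -0.31 and the difference -0.04. With the neighbours taken by weighted GC content and length, an alternative chosen after seeing the data, 3 writers were lower and 1 higher, 1 eraser was lower, the medians were -0.15 and -0.20 and the difference 0.05. Of the 40 members' calls, 9 were lost on subtraction of the nearest genes and 3 gained, 11 lost and 1 gained with the weighted neighbours, and 9 lost with 5 FPKM added. The cause of these differences was not tested. Depth limits SETD7 and KDM1B most, at 36 and 44 estimated counts in the siHNRNPA1 library.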
